A study of Homo sapiens with 6 samples.

Results

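The genes described here encode the proteins of the cytosolic ribosome, the particle that translates messenger RNA in the cytoplasm. A gene was taken when the deposited table called it protein-coding and its symbol was RPL or RPS followed by a number, with or without A, X or L at the end, or was RPLP0, RPLP1, RPLP2 or RPSA. The rule found 81 of the 60664 genes in the table, 49 of the large and 32 of the small subunit. It used names alone and no measured value. FAU, which encodes a ribosomal protein fused to a ubiquitin-like sequence, falls outside it by name.

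The libraries are labelled as RNA of HCT8, an established colorectal cancer cell line. In 3 libraries the cells had received a control plasmid and carried the genotype label WT, and in the other 3 they had received a plasmid for overexpression of KDM4A and were labelled as KDM4A-overexpressing. KDM4A is a histone demethylase that removes methyl groups from lysines of histone H3. All 6 libraries carry batch 1 in the labels, all were Trizol RNA made into Illumina mRNA libraries, and the time from transfection to harvest was not stated in the labels used. The series title asks which signalling pathways KDM4A regulates in colorectal cancer. The labels do not say whether libraries of a group were separate cultures, so the p-values express the spread between libraries, and that spread may be technical.

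Each ribosome holds 1 copy of nearly every ribosomal protein, bound to ribosomal RNA, and the stalk proteins RPLP1 and RPLP2 are the main exception. The small subunit reads the messenger RNA and the large subunit joins amino acids and passes the new chain out through a tunnel. Most ribosomal protein mRNAs begin with a C followed by a run of pyrimidines, called the 5′ terminal oligopyrimidine (TOP) motif, through which mTOR signalling and LARP1 control their translation. Several of the proteins have a second gene, a paralog, whose product can take the place of the main form. In colorectal cancer, ribosome production is known to be high, and free RPL5 and RPL11 are known to bind MDM2 and so to raise p53.

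Library totals lay between 14284240 and 23905980 counts. KDM4A, the gene on the plasmid, lay between 42.9 and 45.9 CPM (counts scaled to a fixed library size) in the control libraries and between 152 and 160.0 CPM in the KDM4A libraries, in the direction of the labels. Markers of colon epithelium, against which the colorectal label was checked, were low in the control libraries. Their summed level was 265 to 280 CPM over 12 markers in the controls and 3570 to 3825 CPM in the KDM4A group. Of the 12, 10 were higher in the KDM4A group, and the differentiation markers KRT20 and GPA33 were near 0 in both groups and could not be tested. Of 8 genes not typical of colon epithelium, 6 were lower and 2 higher, and their sum went from 3027 to 3335 CPM in the controls to 1001 to 1058 CPM. The insulin receptor substrate gene IRS4 had a mean of 2151 CPM in the controls and 323 CPM in the KDM4A group. The epithelial markers EPCAM and KRT8 had means of 18.7 and 119.5 CPM in the controls and 331 and 1671 CPM in the KDM4A group. The groups differed in 78.6% of the 17147 genes tested. The files do not show whether the control and KDM4A libraries came from the same cells, so in every fold change given here an effect of the plasmid and a difference between the cells cannot be told apart. In bulk RNA, fewer cells of a type and less RNA per cell cannot be told apart.

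Counts on the 81 genes made up a larger share of the KDM4A libraries than of the controls. The share was 6.52%, 6.38% and 7.11% in control replicates 1, 2 and 3. It was 8.26%, 8.23% and 8.25% in the KDM4A replicates. Every KDM4A library was above every control, and control replicate 3 was the highest control. The mean was 6.67% ± 0.385 (SD, n = 3) in the controls and 8.25% ± 0.0163 (SD, n = 3) in the KDM4A group. With 3 libraries against 3 an exact two-sided permutation test cannot go below p = 0.10.

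Of the 81 genes, 79 had enough counts to be tested. With edgeR's quasi-likelihood test and Benjamini-Hochberg adjustment over all genes, at a threshold of 0.05, 68 of the 79 were higher in the KDM4A group, 2 were lower and 9 did not pass. Over all genes tested, 40.0% were higher and 38.6% were lower. The KDM4A libraries lay wholly above the controls for 66 of the 79 genes and wholly below for 1, against 40.4% wholly above and 79.7% separated in either direction over all genes. The changes were small. The median log2 fold change was 0.41, a fold of 1.33, with quartiles of 0.28 and 0.69 and a range from -0.40 to 1.46. The median over all genes tested was 0.03, with quartiles of -0.60 and 0.65. Only RPS26, RPS27L and RPS28 passed the test with a rise of at least 2-fold, and 16.4% of all genes did.

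**Figure D1:**
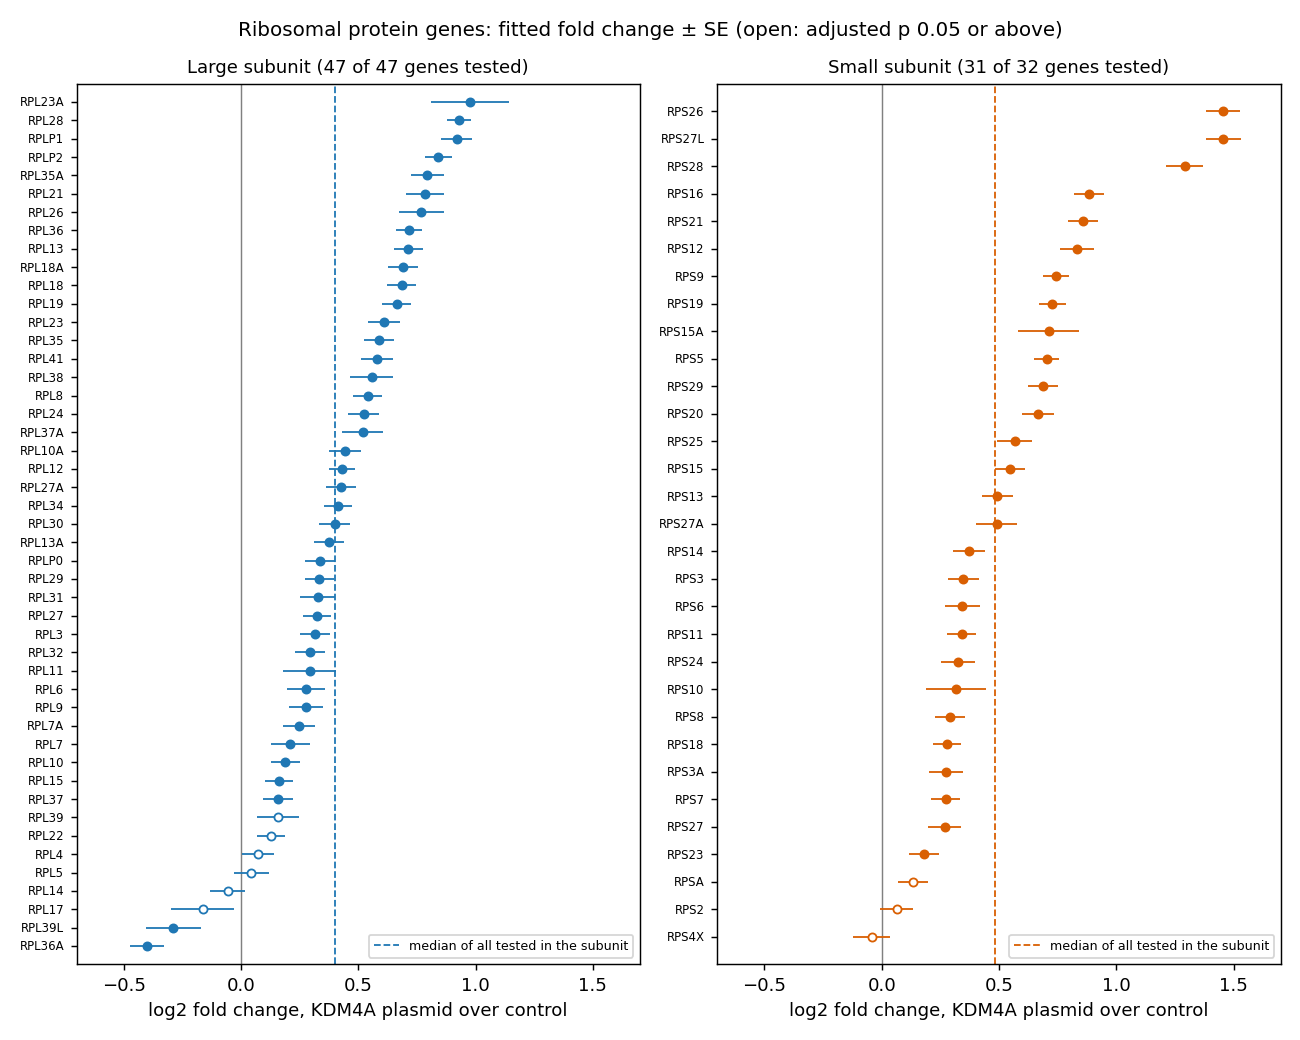
Fitted log2 fold change (horizontal axis, KDM4A plasmid over control) with its standard error for 47 large subunit genes (left) and 31 of the 32 small subunit genes tested (right); open points did not pass and the dashed line is the median of the subunit. Most points lie right of 0, RPS26, RPS27L and RPS28 stand beyond 1, and RPL36A and RPL39L are the only filled points left of 0.

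Gene length moved with this result. Ribosomal protein genes are short, and 45 of the 79 had less than 1000 exon bases. Among 678 other protein-coding genes of that length, 78.8% were higher in the KDM4A group and 7.82% were lower, with a median log2 fold change of 0.77. The 45 short ribosomal protein genes had 40 higher, 2 lower and a median of 0.47. The other 34 had 28 higher, none lower and a median of 0.35. Over all genes tested with 3000 exon bases or more, the median was -0.28. When a trend of level against exon length was removed from each library, 47 ribosomal protein genes were higher and 7 were lower, against 43.1% and 33.4% of all genes, and their median fell to 0.23 where that of all genes was 0.09. With that trend removed, RPL5, RPL6, RPL7, RPL7A, RPL22, RPS2, RPS3A and RPSA, and the paralog RPL26L1, turned from above to below 0 on the log2 scale, and RPL14 turned from below to above it. The median of the short ribosomal protein genes thus lay below that of the other short protein-coding genes, and the part of length in the result was not tested further.

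The subunits gave similar counts. In the large subunit 39 of 47 genes tested were higher, 2 were lower and 6 did not pass, with a median of 0.40. In the small subunit 29 of 32 were higher, none was lower and 3 did not pass, with a median of 0.48. Both counts are read beside 68 of 79 higher in the 2 subunits together, and 40.0% higher and 38.6% lower over all genes tested. All 3 genes that rose by at least 2-fold belonged to the small subunit. The summed large subunit counts were 3.87% ± 0.230 of the control libraries and 4.83% ± 0.0197 of the KDM4A libraries (SD, n = 3 each). The small subunit counts were 2.80% ± 0.156 and 3.42% ± 0.0120 (SD, n = 3 each). The ratio of large to small subunit counts was 1.39, 1.37 and 1.39 in the controls and 1.42, 1.41 and 1.40 in the KDM4A libraries. The groups did not overlap in this ratio, and their means of 1.38 and 1.41 differed by 0.0259.

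RPS26 had the largest rise. The protein lies where mRNA leaves the small subunit, and its gene is one of those mutated in Diamond-Blackfan anaemia, an inherited failure of red cell production. It stood at 151, 162 and 189 CPM in the controls and at 471, 478 and 429 CPM in the KDM4A libraries. The groups were far apart, with every KDM4A library more than 2-fold above the highest control. The fold change was 1.46 on the log2 scale (SE 0.072, edgeR adjusted p = 4.3e-12). TSR2, the chaperone that brings RPS26 to the ribosome, rose by 0.27 (SE 0.061, edgeR adjusted p = 5.5e-04).

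RPS28, a protein of the small subunit head close to the mRNA exit, followed in size among the main forms. Its level was 65.5, 65.8 and 62.7 CPM in the controls and 135, 164 and 176 CPM in the KDM4A libraries. The controls lay close together and the KDM4A libraries were spread more widely, all above them. The log2 fold change was 1.29 (SE 0.078, edgeR adjusted p = 1.6e-10). Pseudogenes named for RPS28 held 53.2% of the counts that the gene and those copies had together, and with the pseudogene counts added the change was 0.93.

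RPS16, whose tail reaches toward the transfer RNA in the decoding centre, had 319.6, 307 and 364 CPM in the controls and 594, 613 and 621 CPM in the KDM4A libraries. RPS21 had 135, 145 and 162 CPM against 279, 260.2 and 263 CPM. Neither gene had overlapping groups, and their log2 fold changes were 0.88 (SE 0.063) and 0.86 (SE 0.063), with edgeR adjusted p of 6.3e-10 and 9.4e-10. RPS16 is one of 14 proteins listed for the head of the small subunit, and all 14 were higher, with a median of 0.62, against 40.0% of all genes and 78.8% of the other short protein-coding genes. Of the 14 genes, 11 had less than 1000 exon bases. The smallest of these 14 changes were 0.28 in RPS18 and 0.32 in RPS10, and the call of RPS10 was lost in 11 of 19 other settings. With pseudogene counts added, the change in RPS10 was 0.73.

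The large subunit's stalk recruits and activates the elongation factors, and all 3 of its genes rose. That count is near the 68 of 79 higher among all ribosomal protein genes tested, where 40.0% of all genes were higher. RPLP1 had 567, 573 and 666 CPM in the controls and 1157, 1145 and 1117 CPM in the KDM4A libraries. RPLP2 had 306, 296 and 329.5 CPM in the controls and 536, 559.8 and 574 CPM in the KDM4A libraries. Both sets of libraries were well separated, at log2 fold changes of 0.92 (SE 0.066, edgeR adjusted p = 6.1e-10) and 0.84 (SE 0.057, edgeR adjusted p = 2.8e-10). RPLP0, the anchor that holds the RPLP1 and RPLP2 pairs on the ribosome and a common reference gene in quantitative PCR, rose less. It had 1588, 1469 and 1485 CPM against 1822, 1979 and 1937 CPM, without overlap, and a log2 change of 0.34 ± 0.063 (SE; edgeR adjusted p = 9.8e-05). With trends of length and GC content removed, RPLP0 stood at -0.015 and was no longer called, RPLP2 kept its call at 0.22 and RPLP1 stood at 0.70.

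RPL28, a large subunit protein found in eukaryotes, had 203, 213 and 218 CPM in the controls and 399, 408 and 401 CPM in the KDM4A libraries. The libraries within each group were close together and the groups lay apart, at a log2 change of 0.93 ± 0.051 (SE; edgeR adjusted p = 1.9e-11). RPL23A, which lies at the mouth of the exit tunnel where the signal recognition particle docks, was less certain. Its controls were 36.5, 37.0 and 56.5 CPM and its KDM4A libraries 87.7, 86.9 and 82.1 CPM. Control replicate 3 stood well above the other controls yet below all KDM4A libraries. The log2 fold change was 0.98 (SE 0.17, edgeR adjusted p = 0.0013), and it was 1.21 without control replicate 3. Pseudogenes held 21.0% of the combined RPL23A counts.

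**Figure D2:**
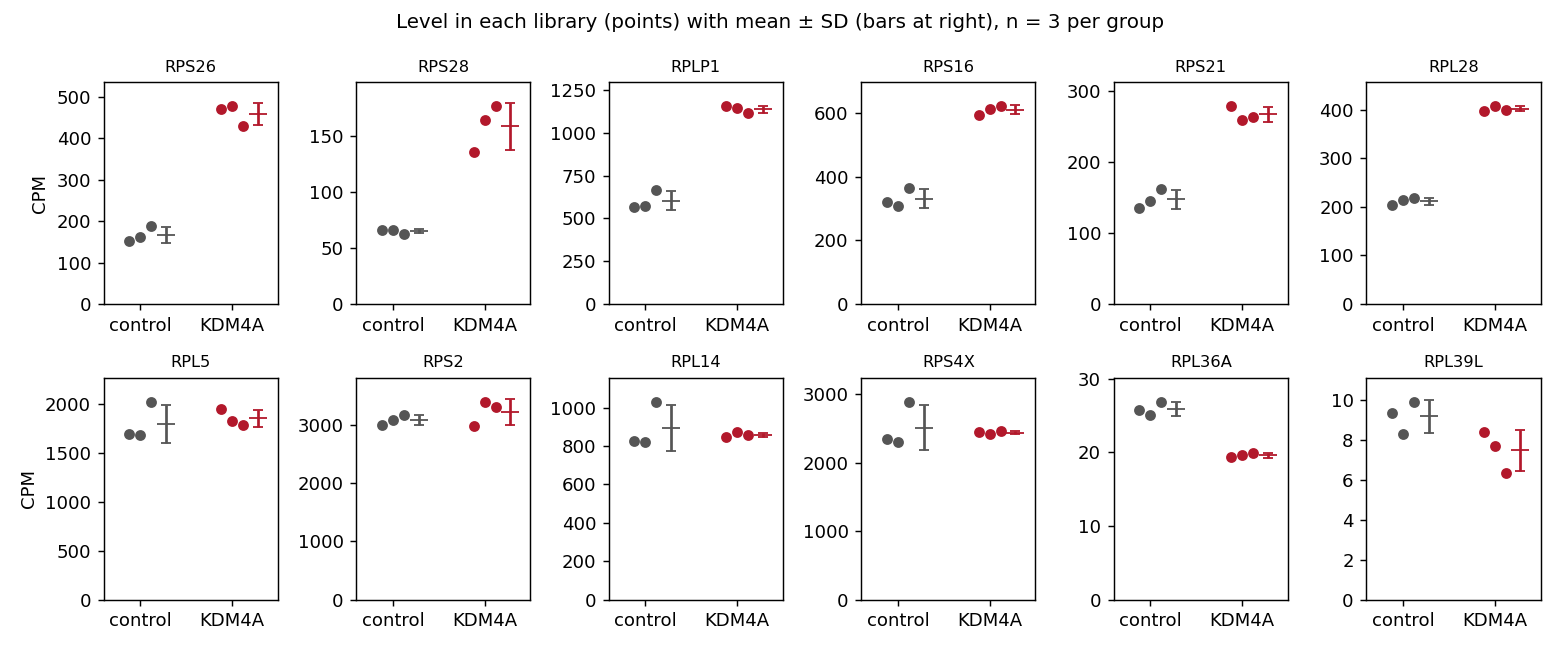
Level in CPM (vertical axes, each starting at 0) of 12 ribosomal protein genes in each control (grey) and KDM4A (red) library, with the mean ± SD of 3 libraries beside the points. The first 6 panels, RPS26 to RPL28, show groups that lie apart with KDM4A higher; RPL5, RPS2, RPL14 and RPS4X overlap, RPL36A is lower without overlap and RPL39L is lower with overlap.

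Proteins of the exit tunnel and its rim moved unevenly: 5 of 9 were higher and 4 did not pass, with a median of 0.33. Over all genes tested 40.0% were higher, and among the ribosomal protein genes 68 of 79 were. Of the 9 genes, 6 had less than 1000 exon bases, and 78.8% of the other short protein-coding genes were higher. RPL26, beside the tunnel exit, rose by 0.77 (SE 0.097, edgeR adjusted p = 2.7e-06), or by 0.49 with its pseudogene counts added, and RPL19 by 0.66 (SE 0.063, edgeR adjusted p = 2.9e-08). RPL4, which reaches into the tunnel, had 2587, 2509.8 and 2780.2 CPM in the controls and 2897, 2708 and 2683 CPM in the KDM4A libraries, with overlap and a log2 change of 0.07 ± 0.067 (SE; edgeR adjusted p = 0.32). RPL39, a very small protein lining the tunnel, had 994, 1045 and 1273 CPM against 1374, 1147 and 1171 CPM, also with overlap. Its log2 fold change was 0.16 (SE 0.089, edgeR adjusted p = 0.12). RPL17, a rim protein, had 7.24, 5.29 and 6.01 CPM against 5.64, 5.08 and 5.93 CPM, with overlap and a log2 change of -0.16 ± 0.13 (SE; edgeR adjusted p = 0.27). Other genes share 35.3% of its exon bases, and the readthrough gene RPL17-C18orf32, which had 0 counts, shares 24.8%.

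RPL5 and RPL11 travel together with 5S ribosomal RNA and, when free, bind MDM2. RPL5 had 1692, 1680.1 and 2022 CPM in the controls and 1953, 1824 and 1785 CPM in the KDM4A libraries. RPL11 had 858, 832 and 1195 CPM in the controls and 1204, 1169 and 1163 CPM in the KDM4A libraries. In both genes control replicate 3 lay among or above the KDM4A libraries. RPL5 did not pass at 0.04 (SE 0.075, edgeR adjusted p = 0.60). RPL11 passed at 0.29 (SE 0.11, edgeR adjusted p = 0.029), a call lost in 10 of 19 other settings, and without control replicate 3 its change was 0.47.

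The remaining genes that did not pass were RPSA, RPL22, RPS2, RPS4X and RPL14. RPSA, also known as the laminin receptor, had 1823, 1729 and 1938 CPM in the controls and 2005, 2032 and 1988 CPM in the KDM4A libraries, which lay above every control, at 0.13 (SE 0.063, edgeR adjusted p = 0.062). RPS2, beside the channel by which mRNA enters, had 3000.4, 3094 and 3177 CPM against 2982, 3400.0 and 3306 CPM, at 0.06 (SE 0.069, edgeR adjusted p = 0.41). RPS4X, whose gene is on the X chromosome, had 2343, 2310.0 and 2893 CPM against 2445, 2415 and 2468 CPM. RPL14 had 827, 821 and 1030.5 CPM against 849.8, 871 and 856 CPM. In RPS4X and RPL14 the KDM4A libraries lay between the lower controls and control replicate 3, and the log2 fold changes of -0.04 and -0.06 turned to 0.06 and 0.05 without that library.

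Control replicate 3 was the highest of the controls in 71 of the 79 genes. Without it, 73 were higher and 1 was lower, with a median of 0.46. The median coefficient of variation over the genes was 8.49% in the controls and 4.24% in the KDM4A group. The differences between genes were larger than their errors: the SD of the 79 log2 fold changes was 0.34 and the median SE was 0.067.

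RPL36A was the clearest fall. It is a large subunit protein near the site from which spent transfer RNA leaves. Its level was 25.7, 25.004 and 26.9 CPM in the controls and 19.3, 19.6 and 19.97 CPM in the KDM4A libraries. All 3 KDM4A libraries lay below all controls, at a log2 change of -0.40 ± 0.071 (SE; edgeR adjusted p = 6.2e-05), a call that held in all 19 other settings. RPL39L, the paralog of RPL39 that is best known from testis and some cancers, had 9.35, 8.30 and 9.92 CPM against 8.38, 7.71 and 6.35 CPM. Here the groups overlapped slightly, the change was -0.29 (SE 0.12, edgeR adjusted p = 0.033), and the call was lost in 5 of 19 other settings.

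Paralogs and their main forms often moved by different amounts. The symbol rule took RPS27L, RPL39L, RPL3L and RPL10L, and RPL22L1, RPL7L1, RPL26L1 and RPL36AL were set beside their main forms as genes outside it. The muscle form RPL3L had 13 counts over the controls and 10 over the KDM4A libraries. The testis form RPL10L had 0 counts in every library, which allows up to 0.0491 CPM over the controls and 0.0536 CPM over the KDM4A group, for counting error only. The other 6 pairs could be compared, and in all 6 the ratio of paralog to main form did not overlap between groups. That count is read beside all genes tested, of which 79.7% did not overlap between groups in CPM. No such share was computed for ratios of other genes. For each pair the exact two-sided permutation p was 0.10, the smallest that 3 against 3 allows, and it was 0.10 after adjustment over the 6 pairs.

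RPS27L, a p53 target gene and the paralog of the small subunit protein RPS27, had 27.2, 28.02 and 33.4 CPM in the controls and 86.6, 81.0 and 76.1 CPM in the KDM4A libraries. Its groups were far apart, at a log2 change of 1.46 ± 0.074 (SE; edgeR adjusted p = 6.4e-12). RPS27 had 714, 727 and 857 CPM against 980.4, 876 and 913 CPM, at 0.27 (SE 0.071, edgeR adjusted p = 0.0024). The log2 ratio of RPS27L to RPS27 (each CPM + 0.5) was -4.67 ± 0.015 in the controls and -3.50 ± 0.075 in the KDM4A group (SD, n = 3 each). Even so, RPS27L held 8.09% of the pair's counts in the KDM4A group, after 3.71% in the controls. The shares and the ratio are not scaled to exon length, and RPS27L has 6110 exon bases where RPS27 has 352. In RPKM (CPM scaled to exon length), the control means were 4.84 for RPS27L and 2176 for RPS27. In the KDM4A group the means were 13.3 and 2622 RPKM. Exon length is the union over all isoforms, so the RPKM of RPS27L may be understated.

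RPL22L1 went from the smaller to the larger share of the RPL22 pair. RPL22 is an RNA-binding protein often lost in tumours, and in mouse it lowers the mRNA of its own paralog. RPL22L1 had 73.0, 76.4 and 91.4 CPM in the controls and 313, 271 and 284 CPM in the KDM4A libraries. RPL22 had 124, 127 and 143 CPM against 149, 141 and 140.3 CPM. The paralog was thus well separated between groups, at 1.85 (SE 0.078, edgeR adjusted p = 1.6e-12), while the main form overlapped and did not pass, at 0.13 (SE 0.059, edgeR adjusted p = 0.056). RPL22L1 held 37.9% ± 1.09 of the counts of the pair in the controls and 66.8% ± 1.00 in the KDM4A group (SD, n = 3 each).

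The RPL36A pair moved in opposite directions. RPL36AL had 106, 103 and 136 CPM in the controls and 224, 217 and 222 CPM in the KDM4A libraries, a rise of 0.94 (SE 0.081, edgeR adjusted p = 2.5e-08) beside the fall of RPL36A. The log2 ratio of RPL36AL to RPL36A went from 2.12 ± 0.17 to 3.46 ± 0.034 (SD, n = 3 each), and RPL36AL held 81.5% and then 91.8% of the pair's counts. Exons of the readthrough gene RPL36A-HNRNPH2 cover 8.40% of the exon bases of RPL36A, and that gene had 0 counts in every library. The readthrough genes over RPL17 and RPS10 also had 0 counts. Whether reads shared by overlapping genes were left out of the counts was not tested. The level of RPL36A may therefore be understated, and its fall and the shares of the pair rest on the reads assigned to it.

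In the other pairs the ratio was lower in the KDM4A group. RPL7L1, which acts in assembly of the large subunit, had 438, 435 and 436 CPM in the controls and 327 CPM in each KDM4A library, with no overlap. It fell by 0.41 on the log2 scale (SE 0.050, edgeR adjusted p = 5.9e-07), a call lost in 3 of 19 other settings. Leaving out 1 library gave -0.43 to -0.41, but over all settings the change lay between -0.46 and -0.033. RPL7L1 has 4499 exon bases, and its ratio to RPL7 was not tested with a length trend removed. RPL7 had a log2 change of 0.21 ± 0.082 (SE; edgeR adjusted p = 0.027), and the log2 ratio of the pair went from -1.83 ± 0.19 to -2.46 ± 0.078. For RPL26L1 over RPL26 it went from 1.54 ± 0.031 to 0.99 ± 0.22, and RPL26L1 itself rose by 0.21 (SE 0.058, edgeR adjusted p = 0.0036). Pseudogenes held 57.9% of the combined RPL26 counts, and with those counts added the difference of the log2 ratio between groups shrank from -0.56 to -0.28 and the exact two-sided permutation p was 0.20. For RPL39L over RPL39 the ratio went from -6.83 ± 0.15 to -7.27 ± 0.15 (SD, n = 3 in each group).

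**Figure D3:**
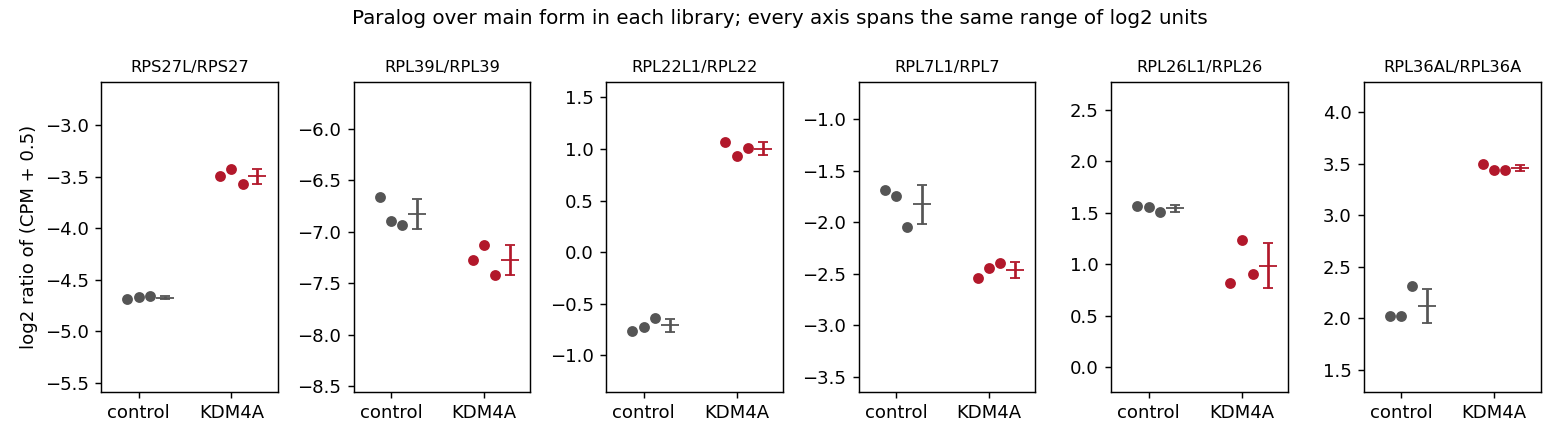
Log2 ratio of paralog to main form (vertical axes, CPM + 0.5 in each, all spanning the same number of log2 units) in each control (grey) and KDM4A (red) library for 6 pairs, with mean ± SD of 3 libraries. The ratio is higher with the KDM4A plasmid for RPS27L, RPL22L1 and RPL36AL and lower for RPL39L, RPL7L1 and RPL26L1, with no overlap in any pair. Of all genes tested, 79.7% did not overlap between groups in CPM.

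The starts of these genes are shown because the TOP motif is what most ribosomal protein mRNAs share and because paralogs can differ in it. Each window runs 5′ to 3′ on the gene's strand, from RefSeq (GRCh38.p14), with 15 bases before the annotated start and 20 from it, and capitals mark a C followed by at least 4 pyrimidines that begins within 5 bases of the start. Among the main forms with a RefSeq window, the 4 with the largest changes are shown first. RPS26 (chr12:56041903-56041937, plus strand) had no such run, while RPS28 (chr19:8321481-8321515, plus strand), RPL28 (chr19:55385917-55385951, plus strand) and RPLP1 (chr15:69452803-69452837, plus strand) had one.
RPS26: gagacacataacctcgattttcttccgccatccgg
RPS28: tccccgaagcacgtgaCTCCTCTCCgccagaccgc
RPL28: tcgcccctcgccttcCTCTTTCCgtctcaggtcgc
RPLP1: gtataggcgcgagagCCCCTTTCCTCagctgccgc
In the RPS27 pair the main form (chr1:153990747-153990781, plus strand) held a run and its paralog (chr15:63157458-63157492, minus strand) held none.
RPS27: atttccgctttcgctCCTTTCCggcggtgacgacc
RPS27L: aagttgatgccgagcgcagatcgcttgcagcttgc
In the RPL22 pair both the main form (chr1:6199576-6199610, minus strand) and the paralog (chr3:170870176-170870210, minus strand) held a run at the start.
RPL22: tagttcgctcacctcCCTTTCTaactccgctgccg
RPL22L1: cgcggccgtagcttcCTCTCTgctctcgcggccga
In the RPL36A pair the main form (chrX:101390996-101391030, plus strand) held a run of 10 bases counted from the start. The paralog (chr14:49620607-49620641, minus strand) held a run that begins before the start, of which 7 bases are marked. Marking began at the qualifying C nearest the start. In both genes further pyrimidines lie directly before the marked bases, so the marked lengths are not compared.
RPL36A: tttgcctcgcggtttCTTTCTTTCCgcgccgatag
RPL36AL: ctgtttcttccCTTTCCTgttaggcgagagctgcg

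RefSeq promoters were matched for 64 of the 81 genes. A pyrimidine run began exactly at the annotated start in 42 of them, 65.6%, against 4.07% of all 35116 promoters, and within 5 bases of it in 50, 78.1%, against 21.1%. Of the 42 genes, all tested, 37 were higher, 1 was lower and 4 did not pass, with a median of 0.43. Of the other 21 tested genes with a promoter, 18 were higher and 3 did not pass, with a median of 0.32. Both counts lie near the 68 of 79 higher among all ribosomal protein genes tested, against 40.0% higher and 38.6% lower over all genes. RPS26, RPS27L and RPS28, the 3 genes with the largest rises, had no run exactly at the start. In the promoter window of 250 bases before and 50 after the start, searched on both strands, CCGGAA occurred in 54.7% of the 64 against 17.2% of all promoters, and ATGGCG in 34.4% against 10.7%. TATAAA occurred in 9.38% against 11.5%. These are matches of letters only, and the motif searches may overlap in position.

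Per exon length, the order of the genes was nearly the same in both groups. Spearman's rho between mean control and mean KDM4A RPKM (CPM per 1000 exon bases) was 0.98 over the 79 genes, which share libraries and exon lengths. Control levels ranged from 4.84 to 3270.4 RPKM, with a median of 769. The highest were RPS2 at 3270.4, RPL39 at 2830.4, RPS18 at 2487, RPS3A at 2484 and RPS24 at 2477 RPKM, and neighbours from RPS18 to RPS24 differed by less than their SD. The lowest tested were RPS27L at 4.84, RPS10 at 7.91, RPL17 at 10.1 and RPL39L at 12.6 RPKM. Other genes share 39.4% of the exon bases of RPS10 and 35.3% of those of RPL17. Pseudogenes held 41.3% of the combined RPS10 counts. The levels of RPS10 and RPL17 may therefore be understated by the counting, which was not tested. The exon length is the union over all isoforms, so genes with long rare isoforms are understated on this scale.

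The median change was smaller in genes with higher levels. The 27 genes of highest mean RPKM (1328 to 3344) had a median log2 fold change of 0.29, the next 26 (598 to 1324) had 0.52 and the 26 lowest (8.96 to 580) had 0.59. The spread was widest in the lowest set, which held both genes that fell and the 3 that rose by at least 2-fold. Spearman's rho between mean RPKM and log2 fold change was -0.28 over the 79 genes, against 0.06 over all genes tested. For GC content rho was 0.36 over the 79 and 0.39 over the 16987 tested genes with a value. These correlations are across genes, which share libraries and are not independent replicates.

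**Figure D4:**
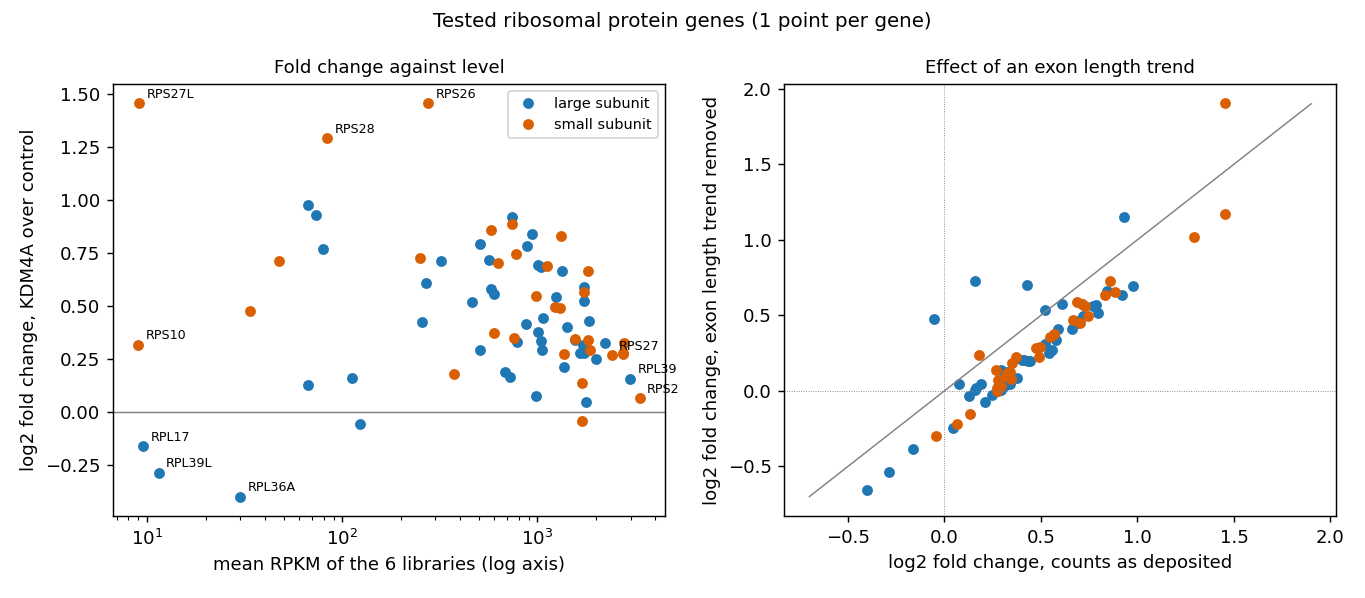
Left, log2 fold change (KDM4A plasmid over control) against mean RPKM of the 6 libraries on a log axis, 1 point per tested ribosomal protein gene, large subunit in blue and small in orange; the genes with low levels are the most spread. Right, the same fold change from the counts as deposited (horizontal) against that with an exon length trend removed (vertical), with the line of equal values; most points lie under the line, and the median goes from 0.41 to 0.23.

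Small nucleolar RNAs, which guide modification of ribosomal RNA, lie within 28 of the 81 genes. Of these 28, 22 were higher and 6 did not pass, with a median of 0.34. Of the 51 tested genes with none, 46 were higher, 2 were lower and 3 did not pass, with a median of 0.49. The difference between these medians was not tested. Among all ribosomal protein genes tested 68 of 79 were higher, and over all genes 40.0% were higher and 38.6% were lower.

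Reads of ribosomal protein genes can also align to their processed pseudogenes, and 77 of the 81 genes had named pseudogenes in the table, 1268 in all. Their summed share was 0.394% ± 0.0207 in the controls and 0.427% ± 0.00366 in the KDM4A libraries (SD, n = 3 each). In 11 genes, over 20% of the combined counts lay in pseudogenes or over 20% of the exon bases were shared with another gene. Without those 11, a choice made after seeing the data, 60 of 68 genes were higher and 2 were lower, with a median of 0.42. With pseudogene counts added, 69 were higher and 2 lower. Over all genes tested, with counts as deposited, 40.0% were higher and 38.6% were lower.

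Genes that work with ribosomal proteins did not rise as a block, and their counts are read against 40.0% higher and 38.6% lower over all genes tested. FAU, made as a fusion with a ubiquitin-like protein, rose from a mean of 79.7 to 156 CPM (log2 fold change 0.97, edgeR adjusted p = 3.7e-11). RPS27A, made as a fusion with ubiquitin, rose by 0.49 on the log2 scale (SE 0.088, edgeR adjusted p = 8.9e-05). Of 16 tested translation factors and related genes whose mRNAs are also of the TOP class, 8 were higher, 4 were lower and 4 did not pass, with a median of 0.15. Of these 16, 9 had 3000 exon bases or more and 2 of the 9 were lower, where 54.2% of all genes of that length were. Only 2 had less than 1000 exon bases, so their median is not compared with that of the shorter ribosomal protein genes. TPT1, a growth-related tumour protein, rose by 1.20 (SE 0.071, edgeR adjusted p = 4.3e-11) and the elongation factor subunit EEF1D by 0.86. The initiation factor subunit EIF3L fell by 0.48 and the translocation factor EEF2 fell by 0.25. EEF1A1, which delivers transfer RNA, had means of 7788 and 8095 CPM, a log2 fold change of 0.06 that did not pass. EEF1G had 0 counts in all libraries, where EEF1B2 and EEF1D had control means of 470 and 169 CPM. Whether reads of EEF1G were lost in alignment or counting was not tested, so the 0 is not read as absence of expression.

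Among 40 ribosome assembly factors, 23 were higher, 8 were lower and 9 did not pass, with a median of 0.20, against 40.0% higher and 38.6% lower over all genes. NOP10 of the pseudouridine-forming particle rose by 1.19, RRP9 by 1.13 and EBNA1BP2 by 1.01, while HEATR1 fell by 1.28, UTP20 fell by 0.80 and the nucleolar GTPase GNL3 fell by 0.65. HEATR1 went from a mean of 373.6 to 154 CPM (edgeR adjusted p = 1.7e-12). Among 14 genes for ribosomal RNA synthesis, 5 were higher, 7 were lower and 2 did not pass, with a median of -0.11. The polymerase I activator UBTF rose by 0.66 and TAF1A fell by 1.28. The largest polymerase I subunits POLR1A and POLR1B fell by 0.71 and fell by 0.93. Of the 14 genes, 6 had 3000 exon bases or more, and 4 of the 6 were lower. Of the 40 assembly factors, 12 had that length and 5 of the 12 were lower, where 54.2% of all genes of that length were. Of 7 chaperones that guard single ribosomal proteins, 6 were higher and 1, the RPL5 partner HEATR3, did not pass. GRWD1, which escorts RPL3, rose by 0.80 (SE 0.063, edgeR adjusted p = 2.2e-09).

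Of 16 genes for control of TOP mRNAs by mTOR, 4 were higher and 12 were lower, with a median of -0.46, against 38.6% lower over all genes. Of the 16 genes, 9 had 3000 exon bases or more, and all 9 were lower, where 54.2% of all genes of that length were. DDIT4, an inhibitor of mTOR complex activity, went from a mean of 199.9 to 24.4 CPM, a fall of 3.03 on the log2 scale (SE 0.070, edgeR adjusted p = 1.7e-16). The S6 kinase gene RPS6KB1 fell by 0.97, LARP1B fell by 0.90, TSC1 fell by 0.75 and LARP4 fell by 0.67. MTOR fell by 0.62 and LARP1, which binds the TOP motif, fell by 0.57. AKT1S1, another mTOR inhibitor, rose by 1.04 and the activator RHEB rose by 0.46. RPS6, the ribosomal protein phosphorylated by S6 kinase, had 1715, 1869.7 and 2050.1 CPM in the controls and 2543, 2241 and 2364 CPM in the KDM4A libraries. Its groups did not overlap, at a log2 change of 0.34 ± 0.074 (SE; edgeR adjusted p = 4.2e-04). RNA levels do not measure kinase activity or translation.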

How the data were processed

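The values the authors deposited are raw counts, 1 per gene and library, for 6 libraries, with exon length, gene type and location on GRCh38.p13 per the file headers. The submitters' processing notes name HISAT2, HTSeq and GRCh38; how counting treated strand is not given, nor are versions, in the sources used here, so antisense overlaps cannot be separated. All columns matched a sample by name, leaving 0 unmatched. Genes were filtered with filterByExpr (minimum count 10), scaled by TMM and tested with edgeR 4.0.16 (quasi-likelihood, robust, no covariates; R 4.3.3), with Benjamini-Hochberg adjustment over 17147 genes. CPM uses totals and TMM factors, and fold changes are KDM4A over control. The fit was tested on simulated data. Paralog ratios used an exact permutation test (SciPy 1.17.1). Alternatives included DESeq2 1.42.0, limma 3.58.1, other scalings and filters, a replicate block, trends of length and GC (GENCODE 29), pseudogene counts and leaving out each library.

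Genes named with values were all pairs, the 8 largest rises, both falls, those not passing, the 5 highest and 5 lowest RPKM (1 of these is not reported here), stalk, 5S, RPSA, RPS6 and RPS27A, and up to 3 rises and 3 falls per list. RPL19, TSR2, EEF1A1, EEF1G, HEATR3, MTOR, LARP1, TSC1 and LARP4 were added after their values were seen. Members and lists were chosen with earlier results of these data known. The limit for a count of 0 is 3 counts over a group.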

Additional observations from a re-analysis of the deposited data

How the results depend on the processing

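Libraries with the same replicate number correlated at -0.15, 0.03 and -0.09 in their deviations from the group means. Libraries with different numbers correlated at -0.099 to 0.18. With 3 libraries per group, these values cannot show whether libraries of the same number shared a preparation, and the labels do not say. With the replicate block, 65 genes were higher and 2 lower, with a median of 0.42. Leaving out 1 library gave 61 to 73 higher, 1 to 2 lower and medians of 0.36 to 0.46, and DESeq2 gave 67 higher and 1 lower. With the length trend removed, 47 were higher and 7 lower, and the medians were 0.23 in all, 0.21 in the large and 0.26 in the small subunit; adding the replicate block gave 6 lower and 0.23, 0.21 and 0.27. With length and GC trends removed, chosen after seeing the data, 8 were lower and the medians were 0.22, 0.15 and 0.28; with the block 7 were lower, with the same medians. Changes of sign in named genes were as follows, and their cause was not tested. With the length trend removed, without and with the block, the log2 fold change was 0.48 and 0.49 in RPL14, -0.034 and -0.031 in RPL22, -0.046 and -0.045 in RPL26L1, -0.24 in both for RPL5, -0.071 and -0.065 in RPL7, -0.22 in both for RPS2 and -0.15 in both for RPSA, and -0.0019 in RPS3A without the block. With length and GC trends removed, without and with the block, it was -0.069 and -0.066 in RPL10, 0.63 and 0.64 in RPL14, -0.014 and -0.011 in RPL22, -0.034 and -0.033 in RPL26L1, -0.19 in both for RPL3, -0.015 in both for RPLP0, -0.51 in both for RPS2, and -0.0041 and -0.0038 in RPSA. RPS2 was -0.039 with pseudogene counts, and RPL5 was -0.00048 without a composition factor. Leaving out 1 library gave -0.012 to 0.12 in RPL5, -0.12 to 0.046 in RPL14 and -0.11 to 0.057 in RPS4X, in each with the highest value without control replicate 3. The RPL7L1 fall was lost in 3 settings, and its log2 fold change lay between -0.46 and -0.033 over all settings. Depth limits RPL3L and RPL10L, and the design cannot bring an exact p under 0.10.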
